A study of Mus musculus with 6 samples.

Results

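The genes described here are the members of 2 signals that guide migrating midbrain dopaminergic (mdDA) neurons: the Cxcl12 signal (Cxcl12, Cxcr4 and Ackr3) and the reelin signal (Reln, Vldlr, Lrp8 and Dab1). They were chosen by name, and all 7 were found among the 26852 genes of the deposited table. RNA was sequenced from midbrains that had been dissected at embryonic stage E14.5 from C57Bl/6 mouse embryos, and the libraries number 3 for the Lmx1b conditional knockout (cKO; Lmx1b fl/fl;Pitx3-Cre) and 3 for the control (Lmx1b wt/wt;Pitx3-Cre). Both genotypes carry Cre in the Pitx3 locus, so that the floxed Lmx1b, which encodes a LIM homeodomain transcription factor, can be removed only in cells that express Pitx3, and these are a small part of the dissected tissue. Each library holds the pooled RNA of a pair of embryos, and the embryos of the whole set came from several litters. The comparison asks which of the migration genes differ in transcript level when Lmx1b is removed from these neurons.

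Cxcl12 is a secreted chemokine. In the brain of the embryo it comes mainly from the meninges and from vessels, and it draws cells that carry the receptor Cxcr4, while Ackr3 binds and removes the ligand and so shapes its gradient. Reelin is a large glycoprotein of the extracellular matrix that binds the receptors Vldlr and Lrp8 (also called ApoER2), which leads to phosphorylation of the adaptor Dab1 inside the cell, and both signals are known to act on newborn mdDA neurons as they move away from the ventricle and sideways through the ventral midbrain.

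Lmx1b belongs to the homeodomain proteins, many of which bind the core TAATTA, and Pitx3 to the bicoid-like ones, many of which bind TAATCC. The 250 bases before each RefSeq start site of the members (GRCm38.p6) were searched for both motifs on both strands; the motifs do not overlap each other in these windows, and TAATTA reads the same on either strand. The 7 genes have 11 such windows. TAATTA was found in 1 of them, at Vldlr, with its first base at position -142 from the start site, and TAATCC in 0. Over all 32851 windows of the table, 4.84% hold TAATTA and 6.25% hold TAATCC. The windows of Cxcl12 and Cxcr4, the members with the largest differences between the genotypes below, and the Vldlr window with the motif are shown here 5′ to 3′, with the motif in capitals.
Cxcl12, chr6:117168285-117168534, + strand: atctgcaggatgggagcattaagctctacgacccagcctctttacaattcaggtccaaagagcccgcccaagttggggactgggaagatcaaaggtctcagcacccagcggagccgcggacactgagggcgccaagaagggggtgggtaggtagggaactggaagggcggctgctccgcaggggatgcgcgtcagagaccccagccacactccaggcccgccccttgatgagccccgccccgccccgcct
Cxcr4, chr1:128592300-128592549, - strand: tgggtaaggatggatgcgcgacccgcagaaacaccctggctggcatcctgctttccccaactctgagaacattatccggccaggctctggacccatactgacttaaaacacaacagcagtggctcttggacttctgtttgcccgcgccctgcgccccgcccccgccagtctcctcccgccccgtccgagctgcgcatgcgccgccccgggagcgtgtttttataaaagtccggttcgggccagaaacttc
Vldlr, chr19:27216234-27216483, + strand: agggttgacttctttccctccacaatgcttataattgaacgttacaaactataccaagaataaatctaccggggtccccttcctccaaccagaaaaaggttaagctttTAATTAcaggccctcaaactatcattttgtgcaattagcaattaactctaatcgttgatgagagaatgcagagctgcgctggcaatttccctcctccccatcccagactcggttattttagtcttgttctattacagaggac
The Cxcl12 and Cxcr4 windows are rich in G and C (64.4% and 61.2%) and hold neither motif, and the Vldlr window is poorer in them (41.6%). The median over all windows is 52.4%. A match or its absence describes these letters only.

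The table gives group means of normalized counts, which are reads divided by the size factor of the library. Whole reads behind each mean were recovered, which gave 22867079 to 27727255 reads per library over 26572 genes. The recovered libraries carry a genotype and no sample number, and within each group they are named replicate a, b or c. Lmx1b itself had normalized counts of 1257, 1401 and 1455 in the cKO and 1368, 1352 and 1474 in the control. These ranges overlap, so Lmx1b does not check the genotype labels in this tissue. In the limma fit on the 16897 genes that averaged 10 or more normalized counts, 0 genes had an adjusted p under 0.05 (0% of the genes tested) and 467 had an unadjusted p under 0.05 (2.76%). All 7 members passed the filter on low counts. Their limma adjusted p was 1.00 throughout, so that none of the differences described below passed the adjusted threshold. An unadjusted p under 0.05 was found for 1 of the 7, Cxcl12, which was higher in the cKO. Of all genes tested, 1.17% were higher and 1.6% lower at that threshold. Likewise 1 of the 7 had cKO and control libraries that did not overlap, against 7.63% of the genes tested (3.89% higher and 3.74% lower in the cKO). All 18 mdDA markers listed were tested, and their summed normalized count was 18771 to 19713 in the cKO and 19611 to 21951 in the control. Of the 18, 5 were higher and 13 lower in the cKO. The groups did not overlap for 7 of them, 2 higher and 5 lower. At an unadjusted p under 0.05 Ddc, Pitx3, En1 and En2 were lower and Aldh1a1 was higher. In a bulk sample, fewer cells of a type and less RNA per cell cannot be told apart.

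Cxcl12 (ENSMUSG00000061353; GRCm38 chromosome 6, 117168535 to 117181367, + strand), the ligand, was the member with the largest difference. The normalized counts of Cxcl12 were 340, 306 and 294 for replicates a to c of the cKO and 223, 266 and 222 for those of the control. All 3 cKO libraries were above all 3 control libraries, and the lowest cKO library was 1.11 times the highest control library. The means were 314 ± 23.7 (SD, n = 3) and 237 ± 25.0 (SD, n = 3), a 1.32-fold difference. The limma log2 fold change was 0.41 (SE 0.13, 95% interval 0.12 to 0.70; unadjusted p = 0.00990, adjusted p = 1.00), which ranked 67 by p among the genes tested. The exact two-sided permutation test gave p = 0.1, the smallest that 3 libraries against 3 allow. The reads behind these values number 206 to 363 per library, which alone gives a coefficient of variation of about 6.08%, and the libraries of a group varied by 7.55% (cKO) and 10.6% (control). The unadjusted p stayed under 0.05 in all 13 alternative fits, with log2 fold changes of 0.34 to 0.50 when single libraries were left out.

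The sources of Cxcl12 in the embryonic brain have markers of their own, and their levels are given beside this difference. The meningeal markers were higher in the cKO for 10 of the 11 tested (14 were listed), 2 of them at an unadjusted p under 0.05 (Igf2 and Col3a1, a growth factor and a collagen). Of all genes tested, 1.17% were higher at that threshold. The groups did not overlap for 5 of the 11, all higher in the cKO, against 3.89% of all genes tested. Their summed normalized count was 8774 to 20253 in the cKO and 4450 to 7291 in the control, with no overlap. Without Zic1, which is also a rhombic lip marker, the sums were 3195 to 18361 and 2960 to 3283 and overlapped, cKO replicate b lying below control replicate b. The full sum was highest in cKO replicate c, the cKO library with the least Cxcl12. Without that library the log2 fold change of Cxcl12 was 0.45 (limma unadjusted p = 0.0119). In cKO replicate a, the library with the most Cxcl12, the sum without Zic1 was 5130, above all control libraries. Without cKO replicate a the log2 fold change of Cxcl12 was 0.34 (limma unadjusted p = 0.0402). Col1a1, a collagen made by meningeal fibroblasts and by bone, had 6097 normalized counts in cKO replicate c and 532 in cKO replicate a, against 14.8 in cKO replicate b and 10.6 to 11.5 in the control. Markers of bone stood high in cKO replicate c as well: Ibsp, a bone matrix protein, was at 163 normalized counts there and 0 to 1.08 in the other libraries, and Runx2, a factor of bone-forming cells, at 84.4 there, 15.8 and 16.9 in the other cKO libraries and 9.61 to 28.3 in the control. Among the defining meningeal markers, Foxc1 was at 105 to 144 in the cKO and 89.3 to 127 in the control, Slc6a13 at 8.43 to 11.6 and 2.16 to 5.76, and Aldh1a2 at 0 to 11.9 and 4.42 to 7.56. Foxd1 was at 70.4 to 94.0 in the cKO and 68.0 to 70.1 in the control, and the matrix gene Lum at 3.17 to 306 and 0 to 1.77, both without overlap. The part of the meningeal and bone markers in the Cxcl12 difference was not tested. The summed endothelial markers were 9328 to 10230 in the cKO and 9342 to 10263 in the control, with 1 of 12 genes at an unadjusted p under 0.05 (Sox17, lower, limma unadjusted p = 0.0384). The share of all genes tested that were lower at that threshold was 1.6%. The summed pericyte markers were 9735 to 10029 and 9595 to 9972, with 0 of 10 genes at that threshold. In the cKO 8 of the 10 were higher, Vtn and Anpep among them without overlap, and Notch3 was lower without overlap. Among all genes tested, 3.89% were higher and 3.74% lower without overlap. Both vascular sums overlapped between the genotypes. Red blood cell markers were higher in the cKO for 6 of 7, and their sums overlapped (13419 to 17409 and 12011 to 16502). An unadjusted p under 0.05 was found for 2 of the 7 (Hba-a1 and Hbb-bs, both globins, higher), against 1.17% of all genes tested. The part of the vascular and blood markers in the Cxcl12 difference was not tested.

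Cxcr4 (ENSMUSG00000045382; chromosome 1, 128588199 to 128592293, - strand) is the receptor through which Cxcl12 attracts cells. It had 695, 875 and 868 normalized counts in the cKO and 1047, 819 and 991 in the control. Control replicate b lay below 2 of the cKO libraries, so the groups overlapped. The mean was 813 ± 102 in the cKO and 953 ± 119 in the control (SD, n = 3), which is 0.853 of the control. The log2 fold change was -0.24 (SE 0.12, 95% interval -0.49 to 0.016; limma unadjusted p = 0.0634, adjusted p = 1.00; exact permutation p = 0.3). This value depended on single libraries: it was -0.34 without control replicate b (limma unadjusted p = 0.00978), -0.30 without cKO replicate b (0.0494), -0.16 without control replicate a (0.221) and -0.12 without cKO replicate a (0.3). Control replicate a, the library with the most Cxcr4, also had the lowest summed Y-linked genes (2476 normalized counts, against 7631 and 8585 in the other control libraries and 3597 to 4938 in the cKO), and with that sum as a covariate the log2 fold change was -0.27 (limma unadjusted p = 0.0329, adjusted p = 1.00). The summed markers of radial glia, the progenitors along whose fibres these neurons first move, were 37007 to 43544 in the cKO and 41922 to 48414 in the control. They were lowest in cKO replicate a and highest in control replicate a, which are also the libraries with the least and the most Cxcr4. Of the 9 radial glia markers tested, 1 was higher and 8 were lower. At an unadjusted p under 0.05, 3 of them were lower (Hes5, Slc1a3 and Tnc), against 1.6% of all genes tested. The part of radial glia in the Cxcr4 values was not tested.

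Ackr3 (ENSMUSG00000044337; chromosome 1, 90203980 to 90216751, + strand), the scavenging receptor of Cxcl12, was the most variable member. It had 295, 505 and 356 normalized counts in the cKO and 428, 298 and 358 in the control. The cKO held both the lowest and the highest of the 6 libraries, and the groups overlapped throughout. The means were 385 ± 108 and 361 ± 65.3 (SD, n = 3), with a log2 fold change of 0.055 (SE 0.19, 95% interval -0.36 to 0.47; limma unadjusted p = 0.780, adjusted p = 1.00). Its sign turned when cKO replicate b (-0.15) or control replicate b (-0.081) was left out. The interval takes in a decrease to 0.777 and an increase to 1.39 times the control, so that an increase of Ackr3 as large as that of Cxcl12 lies within it and a decrease of that size on the log2 scale does not.

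**Figure D1:**
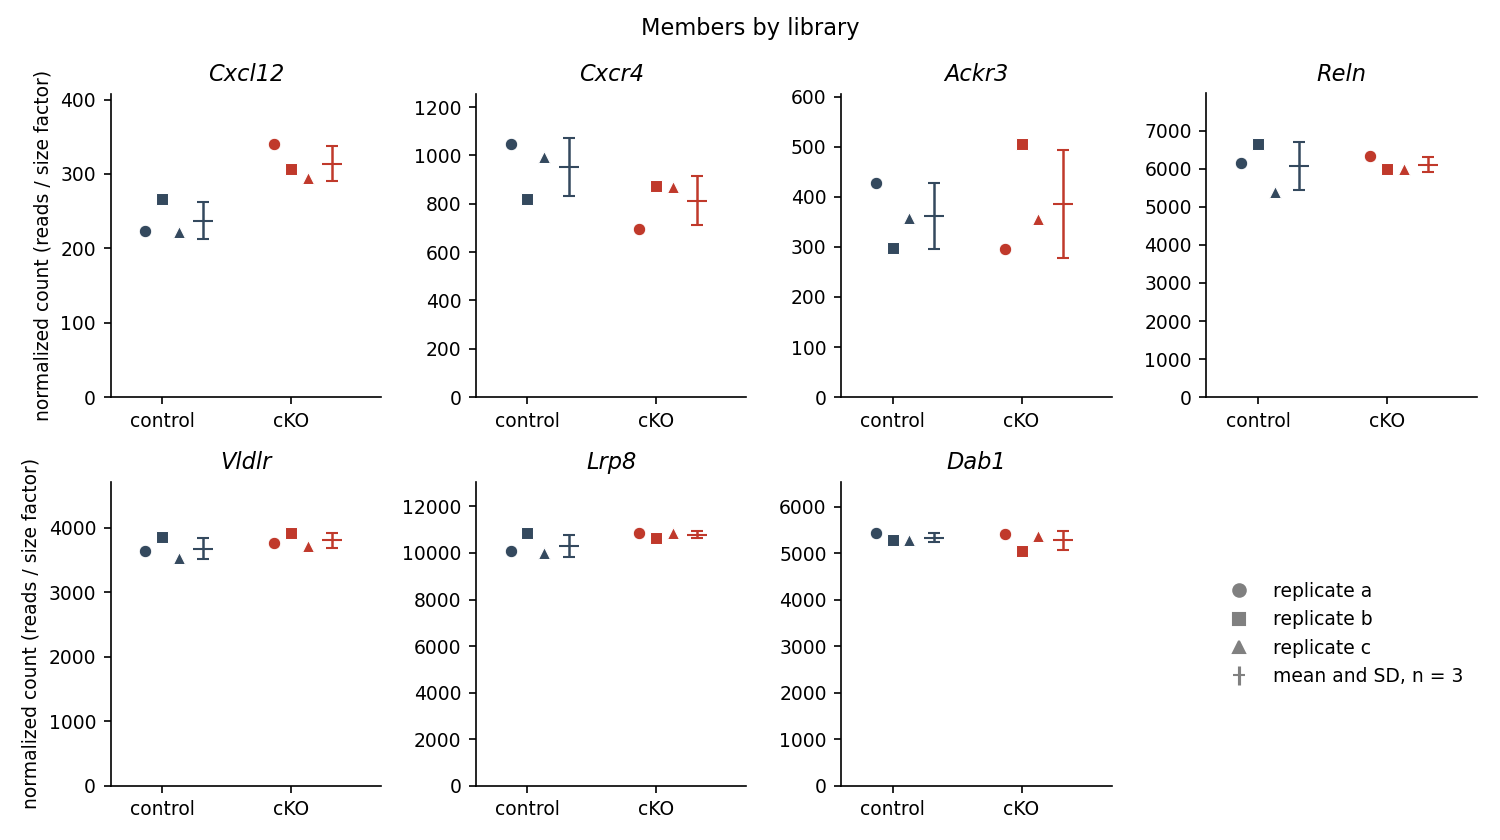
Normalized counts (y axis, reads divided by the size factor, each axis from 0) of the 7 members in control and cKO libraries (x axis). Symbols are single libraries and the bars beside them the mean and SD (n = 3); in the Cxcl12 panel the 3 cKO libraries, 294 to 340, lie above the 3 control libraries, 222 to 266, and in the other panels the groups overlap.

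Ratios taken within a library do not depend on its size factor, and they are given as a description without a test. The ratio of Cxcl12 to Cxcr4 was 0.489, 0.350 and 0.339 in the cKO and 0.213, 0.325 and 0.224 in the control. The groups did not overlap, and the mean log2 ratio was 0.63 higher in the cKO (SD 0.29 in the cKO and 0.33 in the control, n = 3). The library with the most Cxcl12, cKO replicate a, had the least Cxcr4, and the control libraries with the least Cxcl12, a and c, had the most Cxcr4. The ratio of Cxcl12 to Ackr3 was 1.15, 0.607 and 0.827 in the cKO and 0.521, 0.894 and 0.622 in the control, and these overlapped. The ratio of Cxcr4 to Ackr3 was 2.36, 1.73 and 2.44 in the cKO and 2.44, 2.75 and 2.77 in the control. The highest cKO ratio lay just under the lowest control ratio, and the mean log2 ratio was lower by 0.30 in the cKO.

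**Figure D2:**
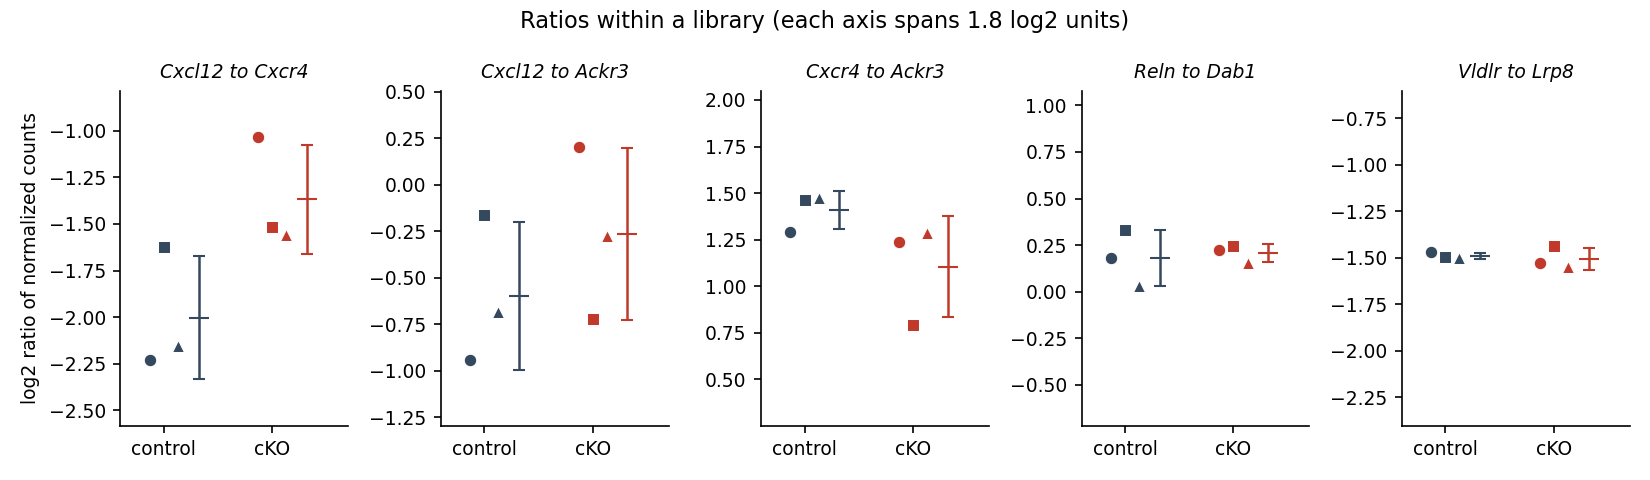
Log2 ratios of the normalized counts of paired members within each library (y axis; every axis spans the same 1.8 log2 units) in control and cKO (x axis); symbols are libraries, and bars the mean and SD (n = 3). The Cxcl12 to Cxcr4 ratios of the cKO lie above those of the control, by 0.63 on average, while the Reln to Dab1 and Vldlr to Lrp8 ratios overlap between the genotypes.

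The reelin signal showed smaller differences, with log2 fold changes from -0.017 to 0.066. Reln (ENSMUSG00000042453; chromosome 5, 21884454 to 22344702, - strand), the ligand, had 6329, 5986 and 5989 normalized counts in the cKO and 6162, 6646 and 5397 in the control. The control libraries spread around those of the cKO. The means were 6101 ± 197 and 6068 ± 630 (SD, n = 3), and the log2 fold change was 0.010 (SE 0.068, 95% interval -0.14 to 0.16; limma unadjusted p = 0.879, adjusted p = 1.00). An antisense gene, Gm10475, shares 246 bases (1.04%) of the Reln exons, and whether counting used the strand is not stated.

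The receptor Vldlr (ENSMUSG00000024924; chromosome 19, 27216484 to 27254231, + strand) had 3766, 3921 and 3710 normalized counts in the cKO and 3635, 3852 and 3526 in the control. The ranges overlapped, and the means were 3799 ± 109 and 3671 ± 166 (SD, n = 3). Its log2 fold change was 0.049 (SE 0.053, 95% interval -0.066 to 0.16; limma unadjusted p = 0.369, adjusted p = 1.00).

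The other receptor, Lrp8 (ENSMUSG00000028613; chromosome 4, 107802261 to 107876840, + strand), had 10875, 10624 and 10859 normalized counts in the cKO and 10075, 10865 and 9979 in the control. Control replicate b was level with the cKO libraries, and the other two control libraries were below them. The means were 10786 ± 140 and 10306 ± 486 (SD, n = 3), with a log2 fold change of 0.066 (SE 0.044, 95% interval -0.029 to 0.16; limma unadjusted p = 0.154, adjusted p = 1.00). Without control replicate b it was 0.11 (limma unadjusted p = 0.0343).

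Dab1 (ENSMUSG00000028519; chromosome 4, 103619359 to 104744844, + strand), the adaptor that passes the signal on, had 5417, 5045 and 5377 normalized counts in the cKO and 5448, 5290 and 5279 in the control. The ranges overlapped, and the means were 5280 ± 204 and 5339 ± 94.1 (SD, n = 3). Its log2 fold change was -0.017 (SE 0.047, 95% interval -0.12 to 0.087; limma unadjusted p = 0.731, adjusted p = 1.00). The exact permutation p of the reelin members was 0.3 for Lrp8, 0.4 for Vldlr, 0.8 for Dab1 and 1 for Reln.

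For the reelin members the 95% intervals reach from 0.909 to 1.12 times the control for Reln, 0.955 to 1.12 for Vldlr, 0.980 to 1.12 for Lrp8 and 0.920 to 1.06 for Dab1. These bounds apply to the whole dissected midbrain, in which Pitx3 cells were not measured separately. The ratio of Vldlr to Lrp8, the receptors of the same ligand, was 0.342 to 0.369 in the cKO and 0.353 to 0.361 in the control, and that of Reln to Dab1 was 1.11 to 1.19 and 1.02 to 1.26. Both ratios overlapped.

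**Figure D3:**
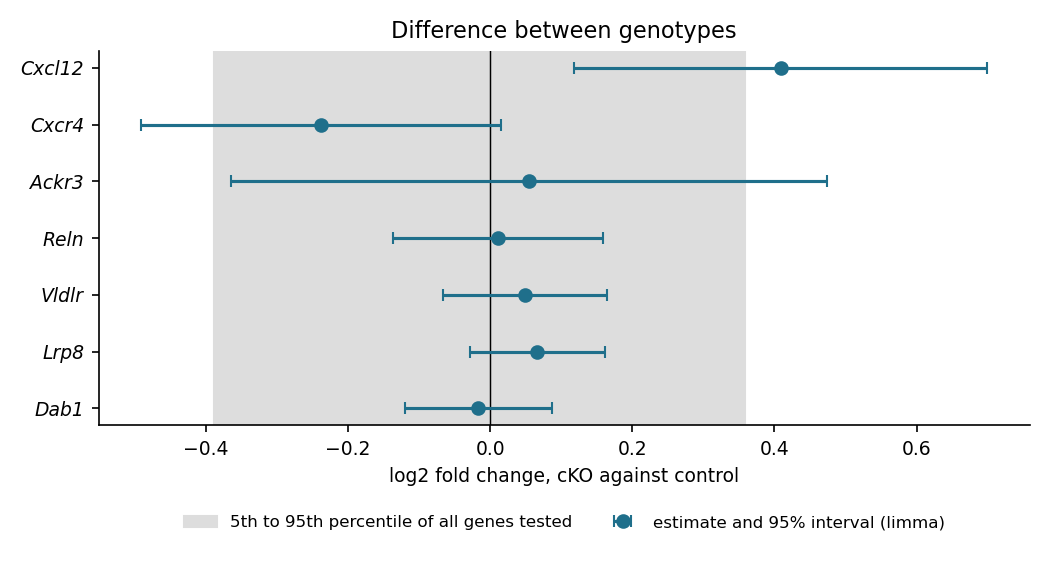
Log2 fold change of the cKO against the control (x axis) for the 7 members (y axis), as points with the limma 95% interval; the grey band spans the 5th to 95th percentile of all genes tested (-0.39 to 0.36). The Cxcl12 estimate, 0.41, lies to the right of the band with an interval that does not reach 0, and the intervals of the other members include 0.

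Reelin is also made by Cajal-Retzius cells and by rhombic lip derivatives at the edge of the dissection. Of the 9 Cajal-Retzius markers tested, 8 were higher and 1 lower in the cKO. Their sums overlapped (18656 to 20959 in the cKO and 18789 to 20270 in the control). An unadjusted p under 0.05 was found for 1 of the 9 markers, against 2.76% of all genes tested. It was Lhx1, a LIM homeodomain factor of several neuron types (higher, limma unadjusted p = 0.0257). Trp73, the most selective of the Cajal-Retzius markers, was at 11.2, 69.7 and 5.41 normalized counts in the cKO and 4.42, 8.65 and 0 in the control. It was highest in cKO replicate b, where Reln was at 5986. The summed counts of the genes listed for the rhombic lip were 18574 to 24526 in the cKO and 15731 to 22887 in the control. They were lowest in control replicate c, which was also the library with the least Reln. The largest parts of this sum came from Lhx9 (means 5244 in the cKO and 4701 in the control), Meis2 (4367 and 4129) and Zic1 (3758 and 2956). Zic1 is also on the meningeal list, so the sum does not measure the rhombic lip alone. Atoh1, which defines the rhombic lip, had 74.3 normalized counts in control replicate a and 0 to 2.16 in the other 5 libraries. Of the 11 tested, 7 were higher and 4 lower, and 1 had an unadjusted p under 0.05: Cbln1, a secreted synaptic organizer of cerebellar granule cells, had 1537, 1551 and 1515 normalized counts in the cKO and 2149, 1702 and 1848 in the control, without overlap (log2 fold change -0.31, limma unadjusted p = 0.00350, adjusted p = 1.00). Among all genes tested, 1.6% were lower at that threshold and 3.74% were lower without overlap. The part of Cajal-Retzius and rhombic lip cells in the Reln values was not tested.

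Transcript levels of different genes were compared per kb of exon, over all exons of the GENCODE annotation. The order was Lrp8 (1003 ± 39.4 normalized counts per kb, SD, n = 6), Dab1 (671 ± 18.4), Cxcr4 (488 ± 69.2), Vldlr (371 ± 14.3), Reln (256 ± 17.6), Ackr3 (111 ± 24.2) and Cxcl12 (33.7 ± 5.77). Lrp8 thus stood at the 91.8th and Cxcl12 at the 23.1st percentile of the 16835 genes ranked. Only the neighbours Cxcr4 (385 to 579 per kb) and Vldlr (350 to 389) overlapped in their libraries. The middle of the order depends on the exon length used: per kb of the longest transcript Reln (520), Cxcr4 (489) and Vldlr (469) changed places, while Lrp8 and Dab1 stayed highest and Ackr3 and Cxcl12 lowest. In either measure the reelin receptor Lrp8 and the adaptor Dab1 were more abundant than their ligand, and the chemokine receptor Cxcr4 more than its own.

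**Figure D4:**
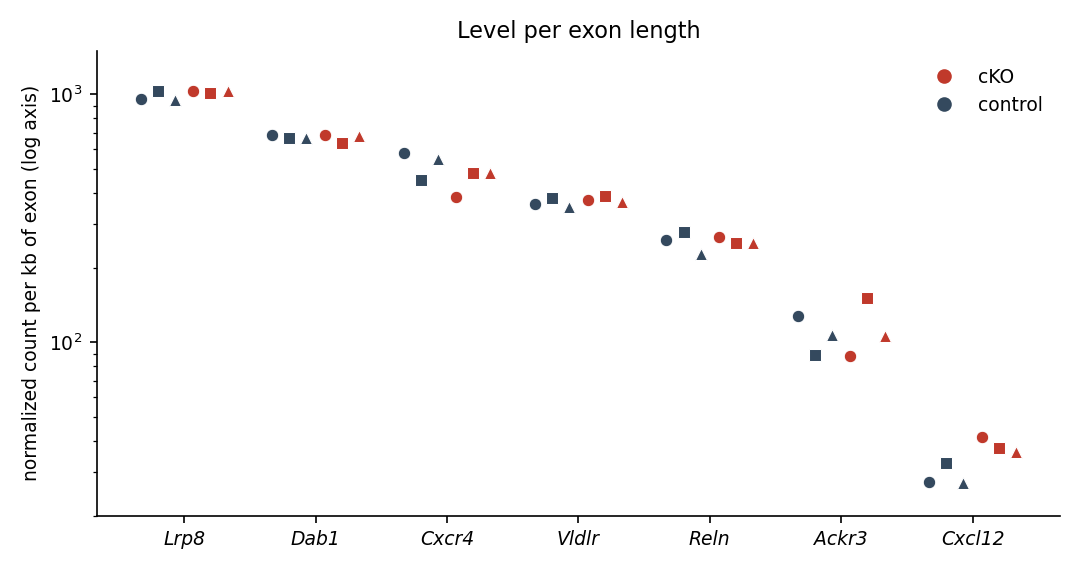
Normalized count per kb of exon (y axis, log scale) of each member (x axis, in falling order) in every library; blue symbols are control and red symbols cKO libraries. Lrp8 is near 1003 and Cxcl12 near 33.7 per kb, and only the neighbours Cxcr4 and Vldlr overlap.

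The other genes of both signals were examined in lists written for this purpose. Of 13 further ligands, peptidases, G proteins, kinases and arrestins of the Cxcl12 receptors, 12 were tested and 0 had an unadjusted p under 0.05, 5 being higher and 7 lower, with a median log2 fold change of -0.0022 (all genes tested, 0.00064). The Gi proteins and the kinases and arrestins that switch chemokine receptors off were close to the control, such as Gnai2 at 5676 ± 453 and 5898 ± 159, Grk2 at 4240 ± 164 and 4260 ± 291 and Arrb1 at 7062 ± 154 and 7101 ± 679 normalized counts (cKO and control, SD, n = 3). Gnao1 was too abundant for its reads to be recovered.

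Of 38 other chemokine ligands and receptors, 28 were in the table and 11 had enough reads to be tested, with 0 at an unadjusted p under 0.05 and a median log2 fold change of -0.023. The most abundant were Ccl27a (1671 ± 62.8 in the cKO and 1641 ± 115 in the control), the scavenging receptor Ackr1 (1252 ± 110 and 1384 ± 146) and Cx3cl1, the ligand of the microglial receptor Cx3cr1 (931 ± 140 and 997 ± 116). The others in the table averaged under 10 normalized counts.

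Below Dab1, of 21 adaptors and kinases 19 were tested, 9 higher and 10 lower, with 0 at an unadjusted p under 0.05. Their log2 fold changes ran from -0.12 (the Src family kinase Yes1) to 0.069 (Limk1, which acts on the actin cytoskeleton), with a median of -0.012. Fyn, the main kinase of Dab1, was at 6816 ± 187 in the cKO and 6992 ± 365 in the control (SD, n = 3), and Cul5, part of the ligase that removes phosphorylated Dab1, at 3144 ± 56.8 and 3230 ± 80.2. Gsk3b, a kinase further down, was the only one of the 19 whose groups did not overlap, against 7.63% of all genes tested, with a log2 fold change of 0.044 (limma unadjusted p = 0.256, adjusted p = 1.00).

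Of 15 genes that cut reelin, turn over its receptors or compete for them, 1 had an unadjusted p under 0.05. Among all genes tested the share was 2.76%. The 1 gene was Mylip, the ubiquitin ligase that sends Vldlr and Lrp8 for degradation. It had 206, 190 and 218 normalized counts in the cKO and 263, 304 and 225 in the control. The 3 cKO libraries were below the 3 control libraries, by little between cKO replicate c and control replicate c. The means were 205 ± 13.7 and 264 ± 39.5 (SD, n = 3) and the log2 fold change was -0.36 (SE 0.15; limma unadjusted p = 0.0341, adjusted p = 1.00). The unadjusted p was under 0.05 in 2 of the 6 fits without 1 library (log2 fold changes -0.46 to -0.26), and without control replicate b it was 0.137. The transcripts of its substrates Vldlr and Lrp8 differed by 0.049 and 0.066 on the log2 scale, as given above, and protein was not measured. None of the proteases that cut reelin had an unadjusted p under 0.05. Adamts3 was at 276 to 296 normalized counts in the cKO and 255 to 399 in the control, and Adamts2 at 237 ± 21.8 and 234 ± 30.7 (SD, n = 3). Adamts5 was at 190 to 200 in the cKO and 173 to 188 in the control, without overlap (log2 fold change 0.12, limma unadjusted p = 0.401, adjusted p = 1.00). Mylip and Adamts5 were the 2 of the 15 without overlap, against 7.63% of all genes tested.

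Of 15 genes of nucleokinesis and microtubules, by which migrating neurons move their nucleus, 5 were tested and 0 had an unadjusted p under 0.05. The other 10, among them Dcx, Map1b and Tuba1a, were too abundant for recovery. Their deposited group means, for which no spread can be given, differed by ratios of 1.00 to 1.03.

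**Figure D5:**
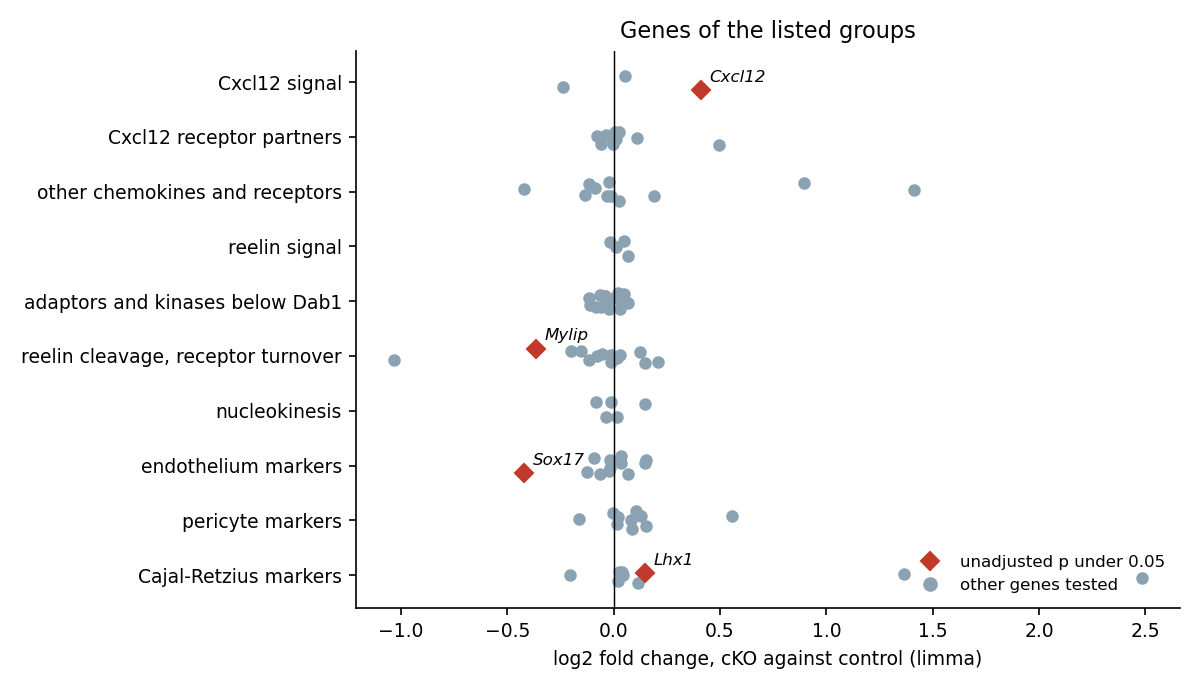
Log2 fold change of the cKO against the control (x axis, limma) for the tested genes of each list (y axis); red diamonds have an unadjusted p under 0.05 and are named, and grey points do not. Cxcl12 (0.41) and Mylip (-0.36) are the diamonds among the signal genes, and no gene shown had an adjusted p under 0.05.

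For each member, the 3 genes with the most similar profile over the 6 libraries were found among the 12664 genes averaging 100 or more normalized counts, by Pearson's r of log2 values. The values of r rest on 6 libraries that share the genotype difference, and are given as a description. The profile nearest to Cxcl12 was that of Tbx2 (r = 0.991), a T-box factor, then Rer1 (0.987) and Scarb2 (0.983). Zscan26 (0.997), Nxn (0.989) and Psmc5 (0.988) were nearest to Cxcr4, and Ube4a (0.993), D030055H07Rik (0.993) and Aprt (0.989) to Ackr3. For the reelin members they were Tarsl2 (0.984), Vps8 (0.983) and Ltk (0.978) for Reln, Zfp646 (0.995), Ccnj (0.988) and Ubr7 (0.977) for Vldlr, Zbtb38 (0.984), Srrm4 (0.981) and Sorcs2 (0.981) for Lrp8, and Dzip3 (0.983), Ctsd (0.982) and Malt1 (0.982) for Dab1. None of the genes named here is a member of either signal's lists.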

How the data were processed

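The authors deposited 1 table of signal values, the mean over each group of read counts divided by a library size factor. According to the submitters' processing notes, TopHat 1.0.14, Bowtie2 2.1.0, HTSeq 0.6.1p1, DESeq 1.10.1 and the build GRCm38.p4 were involved. The paper states that reads were mapped to this build and that read counts were tested for the authors by a sequencing service; the roles of the aligners and the strand setting of the counting are not given in the sources used here. The authors' own fold changes and p-values were not used, and 3 lines that name no gene (31.8% of mean counts) were left out.

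Whole reads per library were recovered from the 15 printed digits of each mean, up to 40000 reads per group, for 26572 genes (99.0%), which hold 77.0% of the normalized counts. Of 1000 decoy means of 10000 to 40000 reads, 25 had an answer. Recovered genes with a mean of at least 10 were fitted with limma 3.58.1 (voom, R 4.3.3) with genotype as the only term, and p-values were adjusted by Benjamini-Hochberg over all 16897. The script was tested on simulated data. Single genes were also compared by exact two-sided permutation over 6 libraries (Python 3.11.15, numpy 2.4.6). Positions come from GENCODE M21 (GRCm38) and promoter windows from RefSeq (GRCm38.p6), which had windows for all 7 members; 224 of 234 listed symbols matched the table.

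Genes named are the members, list genes with an unadjusted p under 0.05, the 3 most similar genes per member and cell markers a result turns on; Gsk3b, Adamts5 and the examples of each list were named after their values were seen. The members and lists were chosen with earlier results of these data known.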

Additional observations from a re-analysis of the deposited data

How the results depend on the processing

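In 13 alternative fits (minimum means of 1 and 50, limma-trend with pseudocounts of 1 and 10, upper-quartile and total scaling, the Y-linked level as a covariate, and each of the 6 libraries left out) no member had an adjusted p under 0.05, and Cxcl12, Cxcr4, Vldlr and Lrp8 kept their direction in all of them. With the Y-linked covariate, Ackr3 was -0.0038 on the log2 scale, the limma unadjusted p of Cxcr4 was 0.0329, and 1 gene of all tested, Cyp26b1, had an adjusted p under 0.05. Without single libraries, Ackr3 ranged from -0.15 to 0.24, Reln from -0.067 to 0.077 and Dab1 from -0.036 to 0.015, so that their signs turned, and 0 to 4 of all genes had an adjusted p under 0.05, the 4 being Kdm5d, Uty, Ddx3y and Gm11702 without control replicate a. With a minimum mean of 1, where 21996 genes were tested, 701 had an unadjusted p under 0.05, and 334 to 643 did without single libraries. The cause of these changes was not tested. Per kb of the longest transcript the levels were 1591 for Lrp8, 1006 for Dab1, 469 for Vldlr, 520 for Reln and 48.9 for Cxcl12. No paired analysis was possible because the recovered libraries carry no sample number. Depth limits Cxcl12 most, with 206 reads in its shallowest library, and intervals describe whole dissected midbrain, not Pitx3 cells.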
